A study of Mus musculus with 35 samples.

Results

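The transcriptional response of the wild type mouse brain to a stroke was described from 10 of the 35 arrays of the series, the 7 arrays labelled FVB-MCAO and the 3 labelled FVB-SHAM. They were chosen by their labels and not by any measured value. All 10 came from male wild type mice of the FVB strain, an inbred albino line, and the labels name no transgene, drug or deletion in them. In the MCAO group the middle cerebral artery, which feeds the lateral cortex and the striatum, had been occluded, and RNA came from the ischemic hemisphere. In the sham group the mice had the surgery without the occlusion, and RNA came from the same side. Both groups were taken 24 h after surgery. Ages, the length of the occlusion and whether blood flow returned are not given in the sources used here. The labels number the arrays but do not say that each is a separate mouse, so p-values measure the spread between arrays, which may in part be technical. Of the other 25 arrays, 7 MCAO and 3 sham arrays came from mice lacking the β2 adrenergic receptor. They entered the choice of probe sets and the estimate of the spread. They also served to test the knockout change and whether a change differed between genotypes. The 15 naive arrays were not used.

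When blood flow to a brain region stops, neurons lose their ion gradients, glutamate floods the tissue and cells die over hours to days. Molecules set free by dying cells are sensed by microglia, astrocytes and the vessel wall, which answer through toll-like receptors and cytokines with chemokines, proteases and acute-phase proteins, and blood neutrophils and monocytes follow. Astrocytes around the lesion become reactive, a state marked by intermediate filaments such as Gfap and by signalling through STAT3.

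Each value is the deposited log2 signal of an Affymetrix probe set, so a difference of 1 is a 2-fold difference. Signals of different probe sets do not share a scale, and no gene's level was set against that of another. In bulk tissue fewer cells of a type and less RNA per cell cannot be told apart. Genes of the labelled tissue were present in all 10 arrays: the synaptic gene Syt1 read between 12.96 and 13.32, the myelin gene Mog between 8.19 and 9.56 and the astrocyte gene Slc1a2 between 12.83 and 13.28.

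Some arrays stood apart. MCAO arrays 1 and 2 were closer to each other than any other wild type pair within a group, with an SD of 0.134 of their log2 differences over all genes against 0.194 to 0.493 for the other MCAO pairs and 0.252 to 0.291 for the sham pairs. MCAO array 4 was the farthest from the rest, at 0.450 to 0.493 from each other MCAO array. Its 3 prime minus 5 prime signal of the actin control probes, a measure of RNA integrity, was 1.70 against 0.387 to 0.993 in the other MCAO arrays and 0.863 to 1.01 in the sham arrays. The same signal of the Gapdh control probes did not set array 4 apart from the other MCAO arrays. It was -0.150, against -0.263 to -0.131 in those and -0.233 to -0.219 in the sham arrays. Sham array 3 was low in genes of striatal neurons, as described with those genes. The interquartile range of the log2 signals over genes was 3.43 to 3.76 in the MCAO arrays and 3.78 to 3.97 in the sham arrays. These ranges do not overlap, and the part of this difference in the changes of single genes was not tested. Pairs of knockout MCAO arrays, which enter the estimate of the spread, were also close. Their correlations over genes were 0.998 (knockout arrays 1 and 6) and 0.9978 (knockout arrays 2 and 5), against 0.9983 for wild type MCAO arrays 1 and 2. Only the wild type pair was averaged as an alternative, and what close knockout pairs do to the SEs was not tested.

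Of 18193 genes, 2901 (15.9%) differed between MCAO and sham at an adjusted p under 0.05 and are named called genes here. Of all genes, 1579 (8.68%) were called higher and 1322 (7.27%) called lower after MCAO. Both shares are the background for every list count below, and a direction with only 1 call in a list is near or below them. Before adjustment 5646 genes (31.0%) had a p under 0.05. The change was at least 2-fold in 367 of the called rises (2.02% of all genes) and 154 of the called falls (0.846%). Large changes went upward: 88 called genes were at least 4-fold higher and 28 at least 8-fold higher, against 5 at least 4-fold lower. The median change over all genes was 0.05 on the log2 scale. With each array shifted to a common median, 37.4% of the called genes were higher, in place of 54.4%, so the balance of small rises and falls depended on the scaling. Among the 2-fold changes, 313 of the 367 rises and 112 of the 154 falls were called again whichever single array of either group was left out. Averaging MCAO arrays 1 and 2 into 1 gave 2871 called genes. Repeated quantile normalization, which gives every array the same distribution of signals, gave 2657 called genes. Of these, 2224 were among the 2901, or 76.7% of the 2901. Leaving out a sham array lowered the count to 1435 without array 1, 1858 without array 2 and 1671 without array 3.

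**Figure D1:**
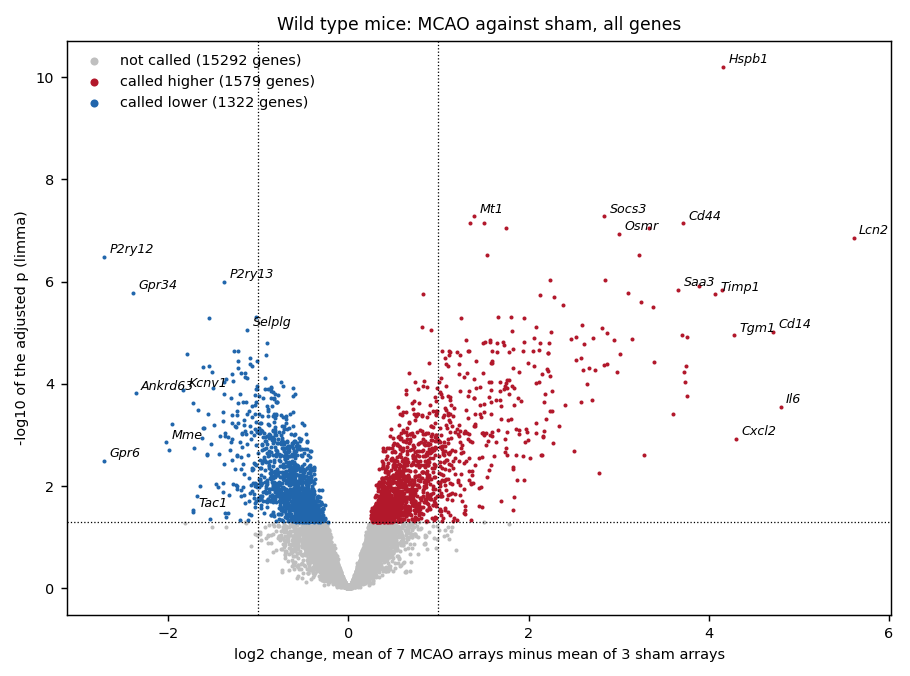
Change of each gene in wild type mice (x axis, mean log2 signal of 7 MCAO arrays minus that of 3 sham arrays) against the strength of evidence (y axis, minus log10 of limma's adjusted p); each point is 1 of 18193 genes, the dotted vertical lines mark 2-fold and the dotted horizontal line an adjusted p of 0.05. The rises reach 5.61 (Lcn2), whereas the lowest value among the falls is -2.71 (Gpr6 and P2ry12).

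The largest rise was that of Lcn2, which codes for lipocalin 2, an iron-scavenging acute-phase protein of astrocytes and neutrophils. Its signal was 5.28, 5.0 and 4.87 in the sham arrays and ran from 9.68 over a median of 10.63 to 11.57 in the MCAO arrays, a difference of 5.61 (SE 0.47, adjusted p = 1.39e-07) or 48.9-fold. All 7 MCAO arrays lay above all 3 sham arrays, and array 4 was the highest. In this comparison 10.6% of all genes had every MCAO array above every sham array, and 9.26% every MCAO array below. Saa3, a serum amyloid A protein, rose by 3.66 (SE 0.36, adjusted p = 1.44e-06) from 5.47, 5.39 and 5.85. Its MCAO values were tightly grouped, from 9.14 to 9.31, and far above the sham values. Ptx3, a long pentraxin that binds microbes and dying cells, read 6.37, 6.58 and 4.97 in sham and 7.99, 10.04 and 10.19 at the lowest, median and highest MCAO array, a rise of 3.73 (SE 0.51). Here array 4 was the lowest of the MCAO arrays, by a wide margin, and the groups still did not overlap. Of the 14 measured genes of acute-phase and secreted inflammatory proteins 8 were called higher and none lower, with a median change of 1.28 against 0.05 for all genes. The protease inhibitors Serpina3n and Serping1 (2.24 and 1.89), the copper carrier Cp (2.06), the interleukin 1 antagonist Il1rn (2.08) and haptoglobin, Hp (0.67), were the others. The members not called were Orm1 (-0.01), Orm2 (0.14), Fgg (0.02), Fgb (0.12), Itih4 (0.12) and Hamp (0.27). Fga, the third chain of fibrinogen beside Fgg and Fgb, is outside the list and is named because it rose, by 1.49 (SE 0.44, adjusted p = 0.0256). With 1 array left out, calls were lost for Fga without sham array 1 or sham array 2 and for Hp and Fga without sham array 3, with limma's adjusted p up to 0.0877 (Fga).

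Il6, the founding ligand of the interleukin 6 family, which signals through the shared receptor chain gp130 to STAT3, had the second largest measured difference. It read 3.67, 3.42 and 3.79 in sham and 7.13, 8.6 and 8.91 at the lowest, median and highest MCAO array, a difference of 4.8 (SE 0.77, adjusted p = 0.000281). The lowest MCAO value, again in array 4, was more than 3 log2 units above every sham value. The sham values were at the bottom of the scale, where the 5th and 10th percentiles of all sham signals were 3.70 and 4.08, and no detection call was used here. The difference of Il6 is therefore a lower bound and its rank is that of the measured values. The same holds for Cxcl2 and Ifi202b, the others among the 20 largest rises with a mean sham signal under the 10th percentile. The promoters of 5 genes of this response are shown because they hold motifs of the factors whose pathways are described below: NF-kappaB (GGG and TTTCC with any 2 bases between), AP-1 (TGANTCA), the heat shock element (GAANNTTC) and STAT (TTCCNGGAA). They are the 250 bases before the RefSeq transcript start in GRCm38.p6, all on the plus strand, with matches in capitals.
Il6 promoter, chr5:30012864-30013113: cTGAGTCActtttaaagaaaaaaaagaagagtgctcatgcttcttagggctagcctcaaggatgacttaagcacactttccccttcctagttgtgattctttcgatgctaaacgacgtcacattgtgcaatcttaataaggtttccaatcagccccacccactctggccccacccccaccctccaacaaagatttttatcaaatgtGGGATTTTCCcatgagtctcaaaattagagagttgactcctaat
Cxcl2 promoter, chr5:90903649-90903898: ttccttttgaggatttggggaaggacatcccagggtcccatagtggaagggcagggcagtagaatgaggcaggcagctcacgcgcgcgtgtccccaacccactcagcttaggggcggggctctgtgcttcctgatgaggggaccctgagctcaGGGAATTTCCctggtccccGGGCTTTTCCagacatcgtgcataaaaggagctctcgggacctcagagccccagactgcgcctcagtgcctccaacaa
Mmp3 promoter, chr9:7445572-7445821: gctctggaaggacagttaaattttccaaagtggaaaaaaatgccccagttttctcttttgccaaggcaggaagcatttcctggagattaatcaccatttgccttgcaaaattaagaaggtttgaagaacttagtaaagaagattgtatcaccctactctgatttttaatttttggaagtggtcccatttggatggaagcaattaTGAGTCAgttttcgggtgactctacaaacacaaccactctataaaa
Hspb1 promoter, chr5:135887669-135887918: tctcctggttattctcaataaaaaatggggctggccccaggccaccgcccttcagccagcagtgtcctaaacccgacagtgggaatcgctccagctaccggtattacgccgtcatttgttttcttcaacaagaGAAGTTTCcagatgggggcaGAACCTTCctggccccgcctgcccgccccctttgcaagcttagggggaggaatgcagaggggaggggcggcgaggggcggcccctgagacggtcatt
Icam1 promoter, chr9:21015690-21015939: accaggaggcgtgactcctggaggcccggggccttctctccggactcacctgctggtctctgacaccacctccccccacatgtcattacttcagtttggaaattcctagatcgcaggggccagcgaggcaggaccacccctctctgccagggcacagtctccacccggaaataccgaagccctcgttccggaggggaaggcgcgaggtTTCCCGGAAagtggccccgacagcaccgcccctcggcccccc
The capitals mark an AP-1 match and an NF-kappaB match in Il6, 2 NF-kappaB matches in Cxcl2, an AP-1 match in Mmp3, 2 heat shock elements in Hspb1 and a STAT match in Icam1. The promoters were picked after the values and matches were known.

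All measured genes with a window were searched for 10 motifs on both strands, over 300 bases that run from 250 before to 50 after the start. Of the 367 genes that rose at least 2-fold 286 had a window, of the 154 that fell 113, and of all genes 14452. The AP-1 motif was in 15.7% of the risers' windows, 6.19% of those of the genes that fell and 7.54% of all windows. The NF-kappaB motif was in 5.59%, 1.77% and 1.89%, in the same order. The STAT motif was in 3.50% of the risers, in none of the 113 and in 1.45% of all. The interferon-stimulated response element (TTTC and TTTC with any 2 bases between) was in 6.64%, 5.31% and 3.63%. Shares near those of all windows were found for the heat shock element at 8.74% of the risers (7.6% of all), for the antioxidant response element (TGACNNNGC), which can overlap an AP-1 match, at 17.5% (16.2%), for the E-box (CACGTG) at 9.79% (10.2%) and for the cAMP response element (TGACGTCA) at 2.10% (2.92%). The C/EBP motif (TTGCGCAA) was in 1 riser and 39 windows in all, and the D-box (TTATGTAA) in 5 and 121. These shares are descriptions of the windows, with no test, and a match is not a binding site.

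The called genes of the interleukin 6 family include ligands, receptor chains and intracellular targets. Of 20 measured genes of this axis 10 were called higher and none lower, with a median change of 0.55. Among the ligands Il11 rose by 2.78 (SE 0.64, adjusted p = 0.00559), Lif, the leukemia inhibitory factor, by 2.4 and Clcf1 by 1.5. The cytokine Osm did not pass at 0.51, yet Osmr, which codes for its receptor, did. Osmr read 6.1, 7.08 and 5.93 in sham and 8.65, 9.52 and 9.7 in MCAO, a rise of 3.01 (SE 0.25, adjusted p = 1.15e-07). The groups did not overlap. The shared chain Il6st rose by 0.58, whereas the receptors Il6ra (0.27) and Lifr (-0.01) and the kinases Jak1 (0.08) and Jak2 (-0.04) did not pass. Stat3 itself rose by 1.65 (SE 0.21) from 9.09, 9.54 and 9.07 to a median of 10.89. Socs3, which STAT3 induces and which in turn blocks the receptor, had one of the smallest p-values of the comparison: 7.0, 6.52 and 6.56 in sham, 9.37 to 9.67 in MCAO, a rise of 2.84 (SE 0.21, adjusted p = 5.31e-08). The MCAO arrays lay close together and far above sham. Sbno2, a STAT3 target outside the list, rose by 1.5 (SE 0.12, adjusted p = 7.21e-08) over MCAO values from 8.56 to 8.83. The other suppressors Socs1 (0.17), Socs2 (0.15) and Cish (0.06) were not called. Leaving out single arrays ended calls for Il6st without sham array 1 or sham array 2 or sham array 3, with limma's adjusted p up to 0.112 (Il6st).

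Of 19 genes of the interleukin 1 and TNF families and the inflammasome 11 were called higher and none lower (median 0.61). Il1b rose by 1.28 (SE 0.28, adjusted p = 0.00356) from 5.67, 5.69 and 5.75 to between 6.8 and 7.23, with no overlap, while Tnf was at 0.33 (adjusted p = 0.0927), Il1a at 0.34 and Il18 at -0.05. Il33, an alarmin stored in nuclei of glia, rose by 2.27 (SE 0.44). It read 8.25, 8.38 and 8.81 in sham and 9.29, 10.95 and 11.52 in MCAO, a wide span with its lowest value still above sham. Tnfrsf12a, the receptor of the cytokine TWEAK, rose by 2.29 (SE 0.23, adjusted p = 1.96e-06), and the TNF receptor Tnfrsf1a by 1.6. The signalling interleukin 1 receptor chains Il1r1 (1.07) and Il1rap (1.02) and the decoy receptor Il1r2 (1.13) all rose. Of the inflammasome, the adaptor Pycard (1.07) and the sensor Nlrp3 (0.48) were called and Casp1 (0.28) and Gsdmd (0.27) were not. Calls that rested on 1 array were lost for Pycard and Nlrp3 without sham array 1 or sham array 3 or MCAO array 6 or MCAO array 7 and for Nlrp3 without sham array 2 or MCAO array 2 or MCAO array 3 or MCAO array 4 or MCAO array 5, with limma's adjusted p up to 0.256 (Nlrp3).

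Toll-like receptors sense microbial and cell-derived molecules and signal through Myd88 to NF-kappaB. Of 17 genes of this pathway 13 were called higher and none lower (median 0.83). The coreceptor Cd14 led, at 6.32, 7.15 and 6.71 in sham and 10.76, 11.64 and 12.1 in MCAO, a rise of 4.71 (SE 0.54, adjusted p = 9.56e-06) or 26.2-fold. Every MCAO array was more than 3 log2 units above every sham array. Tlr2 rose by 1.76 (SE 0.25), Myd88 by 1.65 (SE 0.20) and Tlr1 by 0.96, the last with overlapping groups. Tlr4, the partner of Cd14, did not pass at 0.30 (adjusted p = 0.285). The NF-kappaB subunits Rela (0.83), Relb (0.87), Rel (0.55) and Nfkb2 (0.54) were called, as were the inhibitors that NF-kappaB itself induces, Nfkbia (1.24, SE 0.22) and Nfkbiz (1.31, SE 0.21). When arrays were left out singly, calls ended for Tlr1 and Rel without sham array 1, for Rel without sham array 2 or MCAO array 7 and for Tlr1 and Relb without sham array 3, with limma's adjusted p up to 0.17 (Rel).

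Chemokines, the attractants of leukocytes, gave 15 called rises and 2 called falls among 21 measured genes (median 0.95). Cxcl2, which draws neutrophils, read 4.27, 4.06 and 3.86 in sham and 7.37, 8.14 and 10.12 in MCAO, a rise of 4.31 (SE 0.81, adjusted p = 0.00118). The highest value, in array 4, was far from the other 6, and the rise without that array was 4.02 (adjusted p = 0.00195). Ccl3, a ligand of monocytes and microglia, rose by 3.89 (SE 0.38, adjusted p = 1.2e-06) with MCAO values between 7.96 and 8.47 against 4.31, 4.59 and 4.24. Ccl9 rose by 3.76 (SE 0.44), from 6.04, 5.77 and 5.66 to a median of 9.7. Ccl12, a ligand of the monocyte receptor Ccr2, was among the most variable genes after MCAO, with values of 5.8 to 8.5 around a median of 7.78 and a rise of 3.15 (SE 0.37). Array 4 was its lowest. The further ligands of that receptor Ccl2 (2.71) and Ccl7 (1.4) rose, as did Ccl6 (2.61), the eotaxin gene Ccl11 (2.17), Ccl4 (1.58) and the interferon-induced Cxcl10 (1.84). Of the smaller rises Cxcl13 was the lowest at 0.41. The falls were Cx3cl1, the neuronal fractalkine that holds microglia at rest, at -0.73 (SE 0.19, adjusted p = 0.014), and Cxcl14 at -0.46. Cxcl12 was at -0.03 and not called. Single arrays decided some of these calls, which were lost for Cxcl10, Cxcl13, Cx3cl1 and Cxcl14 without sham array 1, for Cxcl13 and Cxcl14 without sham array 2 or MCAO array 3 or MCAO array 6 or MCAO array 7 and for Cxcl10, Cxcl13 and Cxcl14 without sham array 3. The same happened for Cxcl13 without MCAO array 1 or MCAO array 4, with limma's adjusted p up to 0.18 (Cxcl13).

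**Figure D2:**
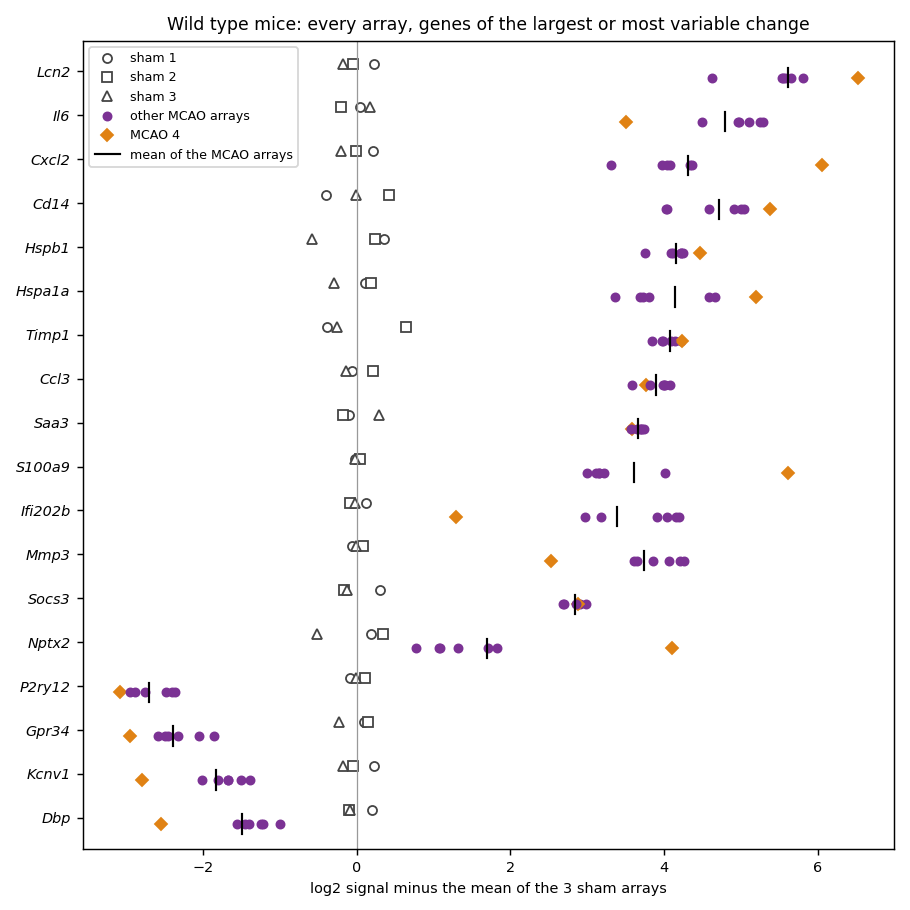
Log2 signal of 18 genes in each of the 10 arrays, minus the mean of the 3 sham arrays (x axis); open symbols are sham arrays, purple points MCAO arrays, orange diamonds MCAO array 4 and black bars the mean of the 7 MCAO arrays. No gene shown has overlapping groups; array 4 is the highest for Lcn2, Cxcl2, Cd14, Hspb1, Hspa1a, Timp1, S100a9 and Nptx2 and the lowest for Il6, Ifi202b, Mmp3, P2ry12, Gpr34, Kcnv1 and Dbp.

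Transcription factors split into a set that was high 24 h after the occlusion and a set that was low. Of 28 early factors of the AP-1, CREB and related families 14 were called higher and 4 lower (median 0.62). Cebpd, a C/EBP factor of the acute phase, read 6.13, 6.48 and 6.59 in sham and 9.16, 9.79 and 10.04 in MCAO, a rise of 3.33 (SE 0.27, adjusted p = 8.8e-08). Its groups were far apart, with array 4 the lowest of the MCAO arrays. Atf3, induced by nearly every cell stress, rose by 2.95 (SE 0.35, adjusted p = 1.36e-05), the AP-1 subunit Fosl1 by 2.22 (SE 0.28), the small Maf factor Maff by 2.05 and Cebpb by 1.75. Myc (1.41), Klf4 (1.74), Jun (1.36) and Fos (1.3) rose too. The 4 that fell belong to the Egr and Nr4a families, which neuronal firing induces. Egr1 changed by -0.76 (SE 0.20) and Egr4 by -0.77, and Nr4a3 by -1.39, while Egr2 (-0.90), Egr3 (-0.80) and Nr4a2 (-1.15) were not called. Nr4a1 was at 11.25, 10.41 and 10.63 in sham and 9.29, 9.56 and 10.97 in MCAO, a change of -1.08 (SE 0.27, adjusted p = 0.00942). Its highest MCAO value, in array 4, lay within the sham range. In the fit without sham array 1, 1 of the 28 factors was called lower in place of 4. Without MCAO array 4, 13 were higher and 6 lower, the added falls being Egr3 (-0.99) and Nr4a2 (-1.35). Some calls ended with an array left out for Jun, Fos, Egr1, Egr4 and Nr4a1 without sham array 1, for Jun and Fos without sham array 2 and for Fos without sham array 3, with limma's adjusted p up to 0.142 (Egr4).

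Genes that depend on neuronal activity behaved unevenly, with 4 of 17 called higher and 3 lower (median 0.09). Nptx2, a pentraxin that gathers glutamate receptors at synapses, read 8.24, 8.39 and 7.54 in sham and 8.83, 9.37 and 12.16 in MCAO, a rise of 1.7 (SE 0.48, adjusted p = 0.0199) that was 1.3 without array 4 (adjusted p = 0.00486). Inhba, an activin subunit, rose by 1.1 and likewise had its highest value, 10.89, in array 4, without which the rise was 0.80 (adjusted p = 0.00394). The mean of the 17 genes, relative to sham, was 1.08 in array 4 and between -0.10 and 0.23 in the other 6 arrays. Homer1, a scaffold of postsynaptic receptors, fell by 0.91 (SE 0.19). Bdnf (0.51), Arc (-0.71) and Npas4 (0.12) were not called. When sham array 1 was dropped the counts were 2 higher and 1 lower, and without sham array 3 they were 2 and 3. Without MCAO array 4 they were 4 and 4, with a median of -0.08. With 1 array left out, calls were lost for Nptx2 and Inhba without sham array 1 or sham array 3 and for Inhba without sham array 2, with limma's adjusted p up to 0.15 (Inhba).

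Of 16 genes of the glucocorticoid response 9 were called higher and 1 lower (median 0.89). Map3k6 rose by 2.47 (SE 0.29, adjusted p = 1.3e-05), the kinase Sgk1 by 1.46 (SE 0.22), the receptor cochaperone Fkbp5 by 1.13 (SE 0.19) and Pdk4, a brake on glucose oxidation, by 1.12. Fkbp5 read 8.84, 9.05 and 8.92 in sham and 9.81 to 10.33 in MCAO, with no overlap. The receptor gene Nr3c1 fell by 0.52, and the targets Tsc22d3 (0.34) and Per1 (-0.03) were not called. Other members of this list, such as Cdkn1a, Mt2 and Nfkbia, also answer to other stress pathways. Leaving out single arrays ended calls for Nr3c1 without sham array 1 or sham array 3, with limma's adjusted p up to 0.184 (Nr3c1).

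Most called clock genes were lower: 7 of 18 were called lower and 1 higher (median -0.40). The output factor Dbp read 11.78, 11.48 and 11.49 in sham and 9.04, 10.18 and 10.59 in MCAO, a change of -1.49 (SE 0.26, adjusted p = 0.000647), with every MCAO array below every sham array. Per2 changed by -1.31 (SE 0.20) and Hlf, a relative of Dbp, by -1.2 (SE 0.17), also without overlap. Per3 (-0.67), Cry2 (-0.60) and Npas2 (-1.1) were lower. Nfil3, the repressor that competes with Dbp for the D-box, rose by 1.02 (SE 0.22, adjusted p = 0.00344). The core activators Clock (0.00) and Arntl (-0.45) and the repressor Nr1d1 (-0.22) were not called. With sham array 1 left out, which had the highest mean of the list among the sham arrays at 0.23, 3 members were called lower. The hour of the day at which tissue was taken is not given in the sources used here, and its part in these values was not tested. Calls that rested on 1 array were lost for Per3, Cry2 and Npas2 without sham array 1, for Npas2 without sham array 2 and for Cry2 and Npas2 without sham array 3, with limma's adjusted p up to 0.199 (Per3).

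The cellular stress responses did not move as 1 block. Hspb1, the small heat shock protein of reactive astrocytes, had the smallest p of all genes: 9.17, 9.06 and 8.23 in sham, 12.57, 13.04 and 13.28 in MCAO, a rise of 4.16 (SE 0.21, adjusted p = 6.29e-11) or 17.9-fold. The inducible chaperones Hspa1a (4.15, SE 0.41) and Hspa1b (2.22, SE 0.30) and their cofactors Bag3 (1.39) and Hspb8 (0.80) rose too. Hspa1a and Hspa1b are near-identical copies whose probe sets may share signal. The constitutive chaperones Hspa8 (-0.18), Hsp90aa1 (0.06) and Dnaja1 (-0.10) and the heat-induced Dnajb1 (0.08) and Hsph1 (0.53) were not called, Hspa4 rose by 0.57 but was at -0.02 with the mean of its probe sets, and Hspa12a (-0.84), Dnajb5 (-0.76) and Hspa4l (-0.61) fell. Of the 18 genes 6 were called higher and 3 lower (median 0.30). Without sham array 1 none was called lower. When arrays were left out singly, calls ended for Hspa12a, Dnajb5 and Hspa4l without sham array 1, with limma's adjusted p up to 0.0928 (Dnajb5).

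In the endoplasmic reticulum and integrated stress response 7 of 19 genes were called higher and none lower (median 0.22). All 7 belong to the branch that ATF4 runs when translation is slowed: Sesn2 (1.08), Ppp1r15a (1.05, SE 0.21), Chac1 (1.01, SE 0.25), Atf5 (0.81, SE 0.14), Atf4 itself (0.62), Trib3 (0.60) and Ddit3 (0.44). Asns, another target of ATF4, was at 0.14 and not called. Chaperones of the lumen did not pass: Hspa5 was at 0.25 (adjusted p = 0.255), Dnajb9 at 0.13, Pdia4 at -0.19 and Hsp90b1 at -0.25. Xbp1 was at 0.22. When sham array 1 was dropped, 4 of the 19 were called. Single arrays decided some of these calls, which were lost for Sesn2, Trib3 and Ddit3 without sham array 1, for Sesn2 and Ddit3 without sham array 2 and for Chac1 and Ddit3 without sham array 3. The same happened for Ddit3 without MCAO array 1 or MCAO array 4 or MCAO array 5 or MCAO array 6 or MCAO array 7, with limma's adjusted p up to 0.23 (Ddit3).

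Of 18 p53 targets and cell death genes 10 were called higher and 1 lower (median 0.41). Cdkn1a, the p21 inhibitor of cyclin-dependent kinases, read 7.83, 8.21 and 7.23 in sham and 10.59, 10.94 and 11.57 in MCAO, a rise of 3.23 (SE 0.28, adjusted p = 2.99e-07). Gadd45g (2.25, SE 0.26) and Gadd45b, listed with the activity genes (2.22, SE 0.28), rose, as did Gadd45a (0.73). Of the death genes Pmaip1, which codes for NOXA, rose by 1.69 and the receptor Fas by 1.33, while Bbc3, which codes for PUMA, was at 0.10 and not called. The survival gene Bcl2 fell by 0.59. With sham array 2 left out the count of rises was 5 and without sham array 3 it was 6. Some calls ended with an array left out for Gadd45a without sham array 2 or sham array 3, with limma's adjusted p up to 0.145 (Gadd45a).

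Of 16 genes of the antioxidant and metal response 9 were called higher and none lower (median 0.41). Hmox1, heme oxygenase 1, read 6.46, 6.76 and 6.15 in sham and 9.57 to 10.08 in MCAO, a rise of 3.38 (SE 0.36, adjusted p = 3.19e-06). The metallothionein Mt1 had the second smallest p of all genes with a rise of 1.4 (SE 0.10, adjusted p = 5.31e-08). Its signal was 12.7, 12.56 and 12.37 in sham and 13.84 to 14.01 in MCAO, a narrow range in both groups. Mt2 rose by 1.75 (SE 0.14), whereas the brain form Mt3 was at 0.12 and not called. The NRF2 targets Srxn1 (1.35, SE 0.10), Slc7a11 (1.4), Gclm (0.76) and Txnrd1 (0.63) rose and Nqo1 (0.35) and Gclc (0.19) did not pass. Of 12 iron handling genes 3 rose, among them the importer Slc39a14 (1.09, SE 0.14) and the phagosomal metal pump Slc11a1 (1.58), and the exporter Slc40a1 fell by 0.70. With 1 array left out, calls were lost for Gclm and Slc40a1 without sham array 1, for Slc40a1 without sham array 2 and for Gclm without sham array 3, with limma's adjusted p up to 0.145 (Gclm).

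**Figure D3:**
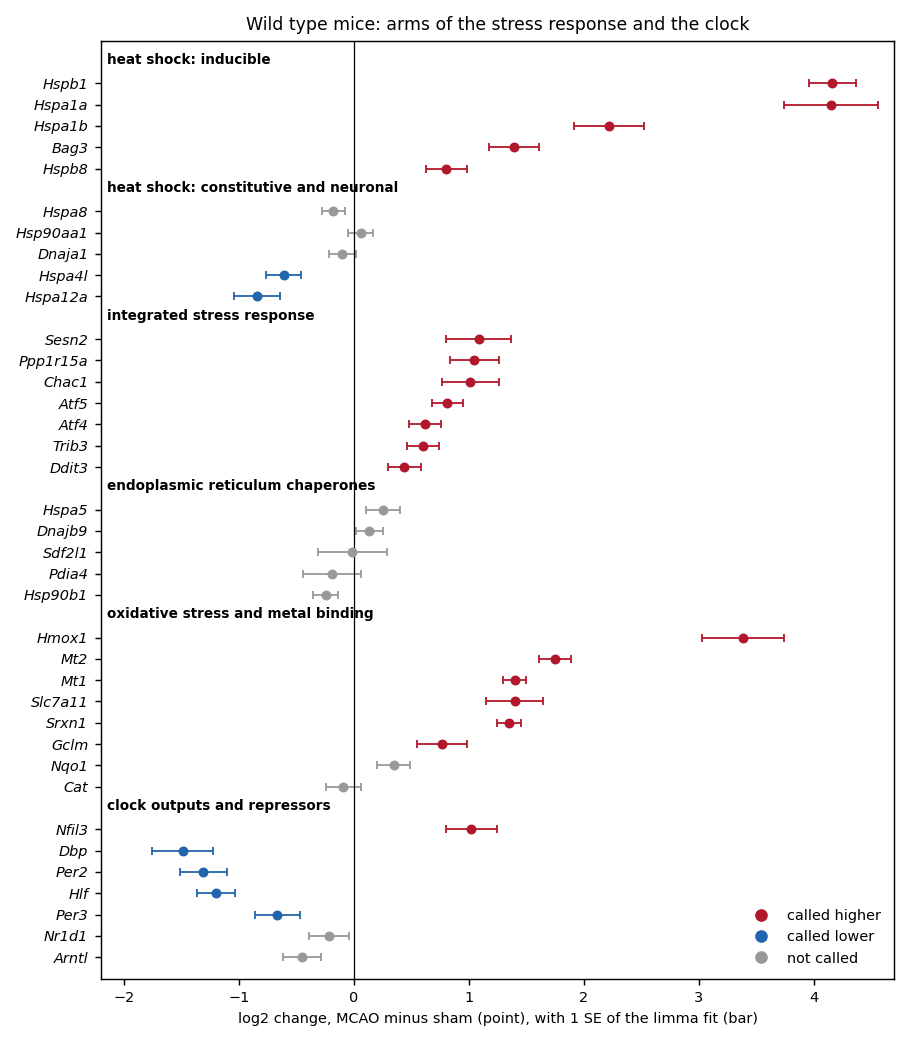
Log2 change of 37 genes in wild type mice (points, mean of 7 MCAO arrays minus mean of 3 sham arrays) with 1 SE of the limma fit (bars); red was called higher, blue called lower and grey not called. The 5 inducible heat shock genes shown and all 7 genes of the integrated stress response lie to the right of 0, the chaperones of the endoplasmic reticulum around 0, and the clock outputs Dbp, Per2 and Hlf to the left.

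Of 21 hypoxia and glycolysis genes 4 were called higher and 2 lower (median 0.12), against 8.68% and 7.27% of all genes. Hk2, an inducible hexokinase, rose by 1.23 (SE 0.17, adjusted p = 6.46e-05) from 6.71, 6.82 and 6.58 to between 7.74 and 8.13, and the vessel-dilating peptide Adm by 1.03 (SE 0.27). Hilpda, a lipid droplet protein (0.77), and the carbonic anhydrase Car9 (0.41) were the other rises, and P4ha1 (-0.71) and Ankrd37 (-0.63) fell. All 6 are known targets of the hypoxia-inducible factor HIF, as are Vegfa (-0.34), Ldha (0.14), Pgk1 (0.12) and Pdk1 (-0.43), which were not called. In the fit without sham array 1 the counts were 2 higher and 0 lower, and without array 3 the count of rises was 2. Leaving out single arrays ended calls for Adm, Car9, P4ha1 and Ankrd37 without sham array 1, for Car9 and Ankrd37 without sham array 2 and for Adm and Car9 without sham array 3. The same happened for Car9 without MCAO array 1 or MCAO array 3 or MCAO array 4 or MCAO array 6 or MCAO array 7, with limma's adjusted p up to 0.187 (Ankrd37).

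Among genes of prostaglandin and leukotriene synthesis 6 of 18 were called higher and 1 lower (median 0.34). The 3 consecutive steps to prostaglandin E2 rose: the phospholipase Pla2g4a by 1.26 (SE 0.36), the cyclooxygenase Ptgs2 by 1.66 (SE 0.30, adjusted p = 0.000813) and the terminal synthase Ptges by 1.58 (SE 0.29). Ptgs2 read 7.27, 7.39 and 7.54 in sham and 8.28, 8.99 and 10.52 in MCAO, with array 4 the highest and no overlap. Of the receptors for this lipid Ptger3 rose by 0.95 and Ptger4 (0.46), Ptger1 (0.31) and Ptger2 (0.25) were not called. The synthase of prostaglandin D2, Ptgds, was at -0.01. Without sham array 3, 3 members were called higher. Calls that rested on 1 array were lost for Pla2g4a without sham array 2 or sham array 3, with limma's adjusted p up to 0.112 (Pla2g4a).

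In arginine and polyamine metabolism 3 of 15 genes rose and 1, Oaz1 (-0.32), fell. The rises were Odc1, the first step to polyamines, by 1.52 (SE 0.18, adjusted p = 1.52e-05), Sat1, which starts their breakdown, by 1.15, and the endothelial nitric oxide synthase Nos3 by 1.17 (SE 0.20). The inducible synthase Nos2 (0.28) and the neuronal Nos1 (0.09) were not called. Of 14 genes of EGF receptor signalling 6 rose (median 0.22). Hbegf, the heparin-binding ligand, read 7.39, 8.67 and 7.8 in sham and 9.91 to 10.17 in MCAO, a rise of 2.08 (SE 0.23, adjusted p = 7.56e-06). The feedback inhibitor Errfi1 rose by 1.09 and the receptor Egfr was at 0.25, not called. With sham array 3 left out the count was 3. None fell, but 1 was called lower without MCAO array 5 and 2 with each array shifted to a common median. Neurotrophic and vascular growth factors gave 2 small rises of 18, Pgf (0.50) and Fgf2 (0.47), with Gdnf at 0.27, Hgf at 0.09 and Igf1 at 0.45 not called. That count is near the 8.68% of all genes. Without MCAO array 4, 4 of the 18 were called higher and 1, Vegfa (-0.47), lower. When arrays were left out singly, calls ended for Oaz1, Pgf and Fgf2 without sham array 1, for Oaz1 and Pgf without sham array 2 or sham array 3 and for Pgf without MCAO array 7, with limma's adjusted p up to 0.133 (Pgf).

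Of 21 genes of TGF-beta, activin and BMP signalling 7 were called higher and 1 lower (median 0.29). The ligand Tgfb1 rose by 1.07 (SE 0.21, adjusted p = 0.00164), its receptor Tgfbr2 by 1.0 (SE 0.21), the corepressor Tgif1 by 1.98 (SE 0.36) and the target Id1 by 1.31. Tgfb2 (0.29) and Tgfb3 (0.24) were not called. The count of rises was 4 without any one of the sham arrays and with each array shifted to a common median. Without MCAO array 4, 5 were called higher and 2 lower. Among 18 phosphatases and feedback regulators of MAP kinases 6 rose, with Dusp10 at 0.83, and 2 fell, Dusp6 (-0.64) and Dusp14 (-0.74). The count of falls is near the 7.27% of all genes, and 8.68% of all genes were called higher. Dusp1, a classic immediate early gene, was at 0.24. In the fit without sham array 3 the rises were 3. Single arrays decided some of these calls, which were lost for Dusp10, Dusp6 and Dusp14 without sham array 1 and for Dusp10 without sham array 2 or sham array 3, with limma's adjusted p up to 0.114 (Dusp10).

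Proteolysis and clotting changed on both the protease and the inhibitor side. Of 18 metalloproteinase genes 9 were called higher and none lower (median 0.63). Timp1, the inhibitor, read 5.64, 6.67 and 5.77 in sham and 9.87 to 10.26 in MCAO, a rise of 4.07 (SE 0.41, adjusted p = 1.77e-06). Sham array 2 was the highest of its group, and all MCAO arrays were far above it. Mmp3, stromelysin 1, read 4.83, 4.97 and 4.88 in sham and 7.42, 8.75 and 9.15 in MCAO, a rise of 3.74 (SE 0.54). Its lowest MCAO value was in array 4. The aggrecanases Adamts1 (2.53, SE 0.30), Adamts4 (1.88) and Adamts9 (1.78), the macrophage elastase Mmp12 (1.1) and membrane-bound Mmp14 (1.02) rose. The gelatinases Mmp9 (0.48, adjusted p = 0.0969) and Mmp2 (0.21) and the inhibitors Timp2 (-0.08) and Timp3 (0.34) were not called. Some calls ended with an array left out for Mmp12 without sham array 1 or sham array 2 or sham array 3, with limma's adjusted p up to 0.073 (Mmp12).

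Of 17 genes of coagulation and plasminogen activation 10 were called higher and none lower (median 0.87). Anxa2 and S100a10, which together form the surface receptor of plasminogen, rose by 2.72 (SE 0.32, adjusted p = 1.28e-05) and 1.33 (SE 0.17). The anticoagulant receptors Procr (2.18, SE 0.33) and Thbd (1.99, SE 0.38) rose together with the urokinase receptor Plaur (1.97) and tissue plasminogen activator, Plat (0.87). Thbd read 7.28, 7.07 and 7.09 in sham and 8.8 to 9.97 in MCAO, with no overlap. Tissue factor, F3, rose by 0.47, and urokinase, Plau, was at 0.08. When sham array 1 was dropped, and without array 3, the count was 6. With 1 array left out, calls were lost for Plat and F3 without sham array 1 or sham array 3 and for F3 without sham array 2 or MCAO array 1 or MCAO array 2 or MCAO array 3 or MCAO array 5 or MCAO array 6 or MCAO array 7, with limma's adjusted p up to 0.166 (F3).

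Matrix genes were called higher in 9 of 22 cases and lower in 1 (median 0.45). The galectin Lgals3 rose by 3.75 (SE 0.51) from 5.82, 5.61 and 5.33 to a median of 9.68, and its relative Lgals1 by 1.59 (SE 0.29, adjusted p = 0.000858). The basement membrane chains Col4a1 (1.47) and Col4a2 (0.99) and fibronectin, Fn1 (0.82), rose, whereas the fibrillar collagens Col1a1 (0.09), Col1a2 (0.21) and Col3a1 (0.50) did not pass. Ccn1, a matricellular target of mechanical and serum signals, ranged from 8.82 to 11.19 in MCAO with array 4 the highest, and rose by 2.14 (SE 0.44), or 1.82 without that array (adjusted p = 0.000937). Prg4, which codes for lubricin, had the largest SD over the 7 MCAO arrays of all called genes, 1.17. It read 6.22, 7.24 and 6.26 in sham and 8.64, 9.54 and 11.29 in MCAO, a rise of 3.29 (SE 0.68, adjusted p = 0.00241). Array 4 was the highest and without it the rise was 3.05. The cytoskeletal list gave 16 rises and 1 fall among 24 genes (median 1.28). Vim (2.59, SE 0.29), the tubulin Tubb6 (2.62), the membrane linker Msn (2.13) and Emp1 (3.71, SE 0.43) led, and the neurofilament Nefl fell by 0.52. Emp1 read 5.23, 6.57 and 5.14 in sham, with array 2 the highest, and 8.79 to 9.99 in MCAO. Leaving out single arrays ended calls for Fn1 and Nefl without sham array 1 or sham array 3 and for Fn1 without sham array 2 or MCAO array 4 or MCAO array 5 or MCAO array 6 or MCAO array 7, with limma's adjusted p up to 0.143 (Fn1).

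All 24 measured genes of reactive astrocytes were called higher, each at least 2-fold and without overlap between the groups, with a median of 2.25. Of all genes 2.02% were called and rose at least 2-fold, and 10.6% had every MCAO array above every sham array. The list was written with earlier results of these data known, so its count is a description. Some members, such as Lcn2 and Cd14, also stand in lists of other cells or pathways. Beside genes given above the 24 include the hyaluronan receptor Cd44, which read 5.81, 6.87 and 6.23 in sham and 9.73 to 10.35 in MCAO and rose by 3.72 (SE 0.29, adjusted p = 7.21e-08). Tgm1, a transglutaminase, rose by 4.29 (SE 0.50) from 3.8, 4.16 and 4.33 to a median of 8.35. Gfap rose by 1.95 (SE 0.21) from 10.19, 11.25 and 10.21, where sham array 2 was again the highest. The list mean of sham array 2 was 0.30, against -0.12 and -0.18 in sham arrays 1 and 3 and 2.54 to 2.94 in the MCAO arrays. Of 15 genes of resting astrocytes 1 was called higher, Aldh1l1 (0.57), and 1 lower, Slc4a4 (-0.71), shares near the 8.68% and 7.27% of all genes. The water channel Aqp4 (0.11), the glutamate transporters Slc1a2 (-0.22) and Slc1a3 (-0.23) and the connexin Gja1 (-0.47) were not called. Calls that rested on 1 array were lost for Slc4a4 without sham array 1 or sham array 2 and for Aldh1l1 and Slc4a4 without sham array 3, with limma's adjusted p up to 0.145 (Slc4a4).

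**Figure D4:**
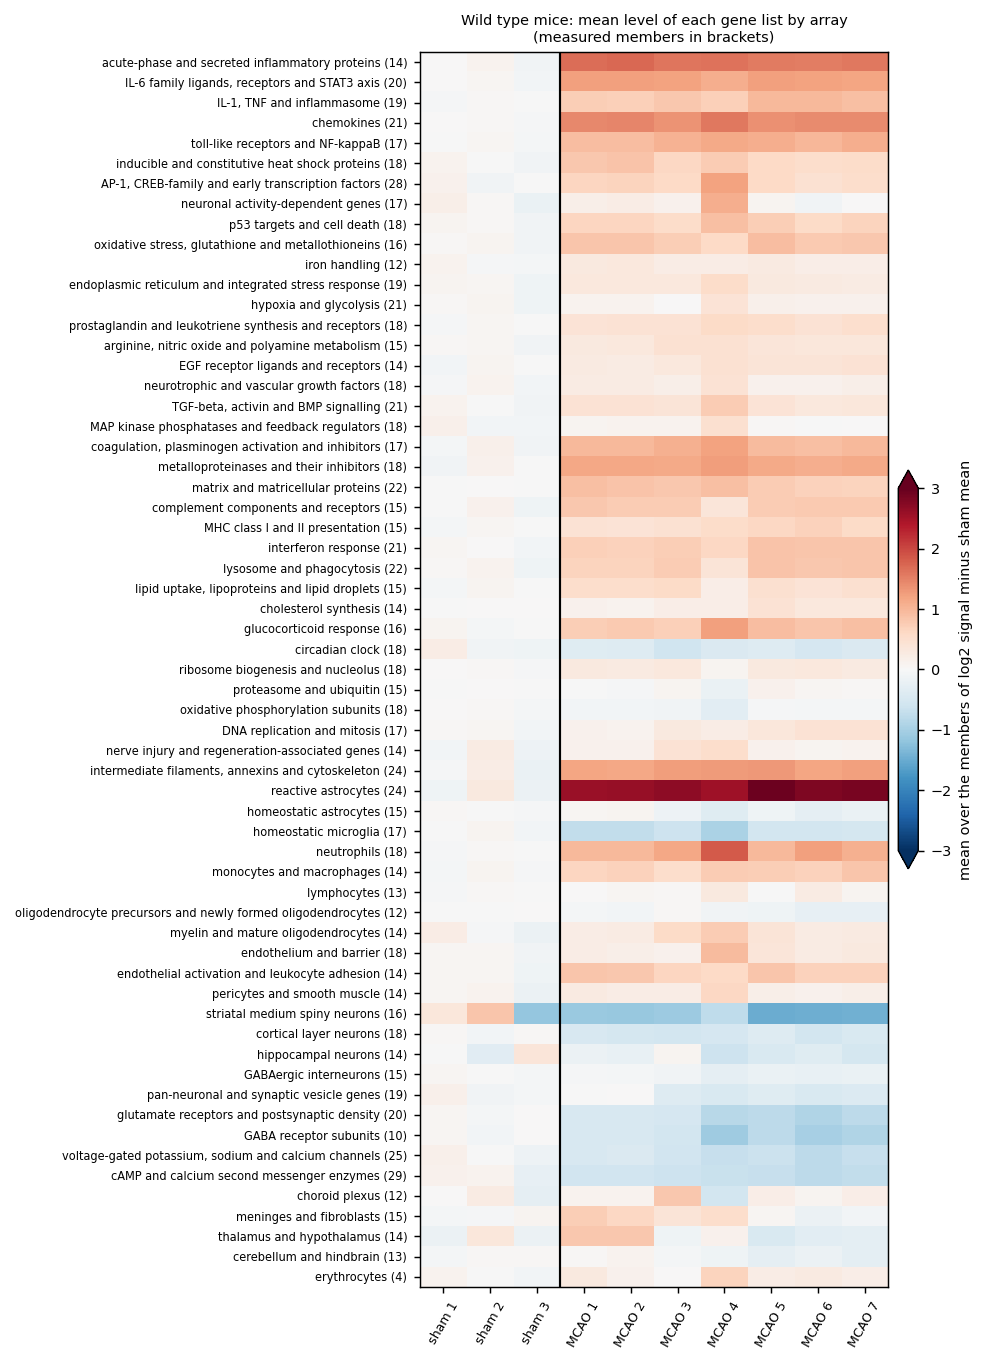
Mean over the members of each of 61 gene lists (rows, measured members in brackets) of the log2 signal minus the sham mean, in each array (columns, 3 sham and 7 MCAO); red is above and blue below sham. Reactive astrocyte genes are at 2.54 or more in every MCAO array, MCAO array 4 is the highest for neutrophils (1.83) and the lowest for complement (0.36), and sham array 3 is at -1.17 for striatal neurons.

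Among microglial genes, calls in the list of the resting state went down and those in the phagocytic and lysosomal list went up. Of 17 homeostatic genes 8 were called lower and none higher (median -0.36). P2ry12, the receptor through which resting microglia sense ADP, read 8.82, 9.01 and 8.9 in sham and 5.83, 6.15 and 6.54 in MCAO, a change of -2.71 (SE 0.24, adjusted p = 3.31e-07) or 6.54-fold lower. Gpr34, a lysophospholipid receptor, read 7.21, 7.27 and 6.89 in sham and 4.16, 4.67 and 5.27 in MCAO, a change of -2.39 (SE 0.24). In both genes the groups lay far apart and array 4 was the lowest. P2ry13 (-1.38, SE 0.13) and Selplg (-1.12, SE 0.13) fell without overlap, and Tmem119 (-0.72) and Siglech (-0.75) fell as well. The survival receptor Csf1r (-0.29), the fractalkine receptor Cx3cr1 (-0.36), Aif1 (-0.28) and Trem2 (-0.10) were not called. Of 22 lysosomal and phagocytic genes 12 rose and none fell (median 0.46), led by the scavenger receptor Msr1 (2.06, SE 0.28), the protease Ctsc (1.84) and Cd68 (1.74, SE 0.25). In array 4 the mean of these 22 genes was 0.39, against 0.67 to 0.85 in the other MCAO arrays.

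Complement genes were called higher in 8 of 15 cases and lower in 1 (median 0.61). C3ar1, the receptor of the C3a fragment, read 6.23, 6.26 and 6.25 in sham and 7.41 to 8.45 in MCAO, a rise of 1.89 (SE 0.34, adjusted p = 0.000812). C5ar1 (1.12), the C1 protease C1ra (1.13) and the integrin chain Itgb2 (1.49) rose, and C1qb (1.02) and C1qc (0.97) did so with array 4 inside the sham range. Cfp, properdin, fell by 0.56. Without sham array 1 the count was 4 and without array 3 it was 5. Of 15 genes of antigen presentation 7 were called higher. Among those of class I, H2-D1 rose by 1.24 (SE 0.24), H2-K1 by 1.23 (SE 0.22) and the transporter Tap1 by 0.63. Of class II H2-Ab1 rose by 0.85 and H2-Aa (0.35), Cd74 (0.45) and the master regulator Ciita (0.10) were not called. A difference between the classes was not tested. When arrays were left out singly, calls ended for C5ar1, C1qb, C1qc and Tap1 without sham array 1 and for C1qb and C1qc without sham array 3, with limma's adjusted p up to 0.16 (C1qc).

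Of 21 interferon response genes 12 were called higher and none lower (median 0.64). The antiviral membrane proteins Ifitm3 (1.89, SE 0.26), Ifitm1 (1.69) and Ifitm2 (1.59, SE 0.21) and the guanylate-binding protein Gbp2 (1.8) led. All 21 changes were above 0. Rsad2 (0.73), Irf7 (0.64) and Irf9 (0.65) were called too, and Ifit1 (0.46), Ifit3 (0.34), Oas1a (0.35) and Mx1 (0.04) were not. Ifi202b, an interferon-induced DNA sensor outside the list, was among the 20 largest rises and the most variable genes: 4.0, 3.79 and 3.85 in sham, 5.18, 7.79 and 8.07 in MCAO, a rise of 3.39 (SE 0.45, adjusted p = 3.75e-05). Array 4 was its lowest, well below the other 6. Single arrays decided some of these calls, which were lost for Rsad2 without sham array 1, for Irf9 without sham array 2 or MCAO array 5 or MCAO array 6 or MCAO array 7 and for Rsad2 and Irf9 without sham array 3, with limma's adjusted p up to 0.162 (Irf9).

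Neutrophil genes rose in 7 of 18 cases, with none lower (median 0.52). S100a8 and S100a9, the subunits of calprotectin, read 5.72, 5.43 and 5.04 and 5.62, 5.69 and 5.62 in sham. S100a8 was at 8.47, 8.86 and 10.73 in MCAO and rose by 3.76 (SE 0.58, adjusted p = 0.000176), and S100a9 was at 8.64, 8.8 and 11.26 and rose by 3.61 (SE 0.60, adjusted p = 0.000393). Array 4 was the highest for both and without it the rises were 3.5 and 3.27. Lcn2, given above and also a neutrophil granule gene, is the member with the largest change. Other granule genes, Mpo (0.40), Elane (0.35), Ngp (0.31), Camp (0.10) and Ltf (0.14), were not called, nor were the receptors Cxcr2 (0.30) and Csf3r (0.28). The mean of the list was 1.83 in array 4, 0.97 to 1.22 in the other MCAO arrays and -0.03 to 0.03 in sham. Over the 15 members other than Lcn2, S100a8 and S100a9, a set formed after their values were seen, the mean was 1.03 in array 4, 0.35 to 0.68 in the other MCAO arrays and -0.07 to 0.03 in sham. With the actin 3 prime minus 5 prime signal as a covariate 11 of the 18 were called higher. Of 14 monocyte and macrophage genes 5 rose, led by Lyve1 (1.57) and F13a1 (1.24, SE 0.33), both of border macrophages. Chil3 was at 1.78 and not called (adjusted p = 0.0553), and Ccr2 was at 0.08. In the fit without sham array 1 the count was 2 and without array 3 it was 3. None of 13 lymphocyte genes was called by limma, with Cd3e at 0.32 and Cd79a at 0.11, and 3 of them had an unadjusted p under 0.05. The count was 1 lower without sham array 3, 1 higher without MCAO array 1 and 2 higher with the actin covariate. Some calls ended with an array left out for F13a1 without sham array 1 or sham array 3, with limma's adjusted p up to 0.0907 (F13a1).

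Of 14 genes of endothelial activation and adhesion 6 rose and 2 fell (median 0.60). Ch25h, which makes an immune-active oxysterol, rose by 3.11 (SE 0.31, adjusted p = 1.66e-06), Lrg1 by 2.74 (SE 0.37) and the adhesion molecule Icam1 by 2.11 (SE 0.30). Icam1 read 5.71, 6.03 and 5.21 in sham and 7.42 to 8.13 in MCAO, with no overlap. The E-selectin gene Sele rose by 1.02, Selp (0.85) did not pass and Vcam1 was at -0.04. Vessel genes themselves were called higher in 6 of 18 cases and lower in 1, with Cdh5 at 1.49 (SE 0.31), Pecam1 at 1.23 and the tight junction gene Cldn5 at 0.57. Slco1c1, a thyroid hormone transporter of the barrier, fell by 0.59, and Ocln (-0.02) and Tjp1 (-0.22) were not called. The mean of the vessel list was 0.94 in array 4 and 0.12 to 0.37 in the other MCAO arrays. When sham array 1 was dropped or array 3, 3 vessel genes were called higher. Without MCAO array 4, 5 were called higher and 2 lower, with Cldn5 no longer among them. With 1 array left out, calls were lost for Sele, Cldn5 and Slco1c1 without sham array 1 or sham array 2 or sham array 3 and for Cldn5 without MCAO array 4 or MCAO array 5 or MCAO array 6 or MCAO array 7, with limma's adjusted p up to 0.205 (Cldn5).

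Lipid handling included 2 strong rises, Plin2, the coat of lipid droplets (2.2, SE 0.37), and Apod (1.66, SE 0.18, adjusted p = 4.82e-06), while Apoe was at -0.39 and not called. Of 14 myelin genes 6 were called higher and none lower (median 0.30). Klk6, a protease of oligodendrocytes, read 7.65, 7.47 and 6.45 in sham and 8.34, 9.6 and 10.17 in MCAO, a rise of 2.16 (SE 0.40), and Mbp (0.11) and Mog (-0.06) were not called. With sham array 2 left out, and without array 3, 2 of the 14 were called. Without MCAO array 4, 5 were higher and 2 lower, Ugt8a (-0.96) and Aspa (-0.55), with a median of 0.18. Among 12 genes of precursors and new oligodendrocytes Gpr17, a receptor of cells about to myelinate, fell by 1.51 (SE 0.21, adjusted p = 5.75e-05). It read 8.73, 8.55 and 8.36 in sham and 6.65 to 7.39 in MCAO, while the precursor genes Pdgfra (-0.08) and Cspg4 (-0.05) were not called. The called members of this list went both ways, with 2 of the 12 higher and 2 lower (median -0.01). Without sham array 2, and without sham array 3, 0 were called higher and 1 lower.

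Genes of striatal medium spiny neurons, the main cells of the striatum, were lower after MCAO, and these falls rested on 2 of the 3 sham arrays. Of 16 measured genes 12 were called lower and none higher (median -1.17). Gpr6, an orphan receptor of these cells, read 8.46, 9.54 and 6.15 in sham and 4.63, 5.28 and 6.67 in MCAO, a change of -2.71 (SE 0.58, adjusted p = 0.00322). Sham array 3 lay below the highest MCAO array, so the groups overlapped. Tac1, the substance P precursor, showed the same order, with 11.56, 12.77 and 10.13 in sham, 8.58, 10.13 and 10.52 in MCAO and a change of -1.72 (SE 0.53, adjusted p = 0.0297). Penk, the enkephalin precursor (-1.54, SE 0.51), the dopamine receptor Drd1 (-1.11, SE 0.35) and the cyclase Adcy5 (-1.04) fell with overlapping groups, and Drd2 (-1.52, adjusted p = 0.062) did not pass. The 2 genes without overlap were Pde10a, which read 10.62, 10.73 and 8.71 in sham and 7.76 to 8.42 in MCAO (-1.96, SE 0.34), and the transcription factor Bcl11b, also expressed in deep cortex (-0.94, SE 0.17). Leaving out single arrays ended calls for Tac1, Penk, Drd1 and Adcy5 without sham array 1 or sham array 2, for Penk and Drd1 without MCAO array 1 and for Penk without MCAO array 2 or MCAO array 5. The same happened for Tac1, Penk and Drd1 without MCAO array 6 or MCAO array 7, with limma's adjusted p up to 0.311 (Drd1).

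The mean of the striatal list relative to the sham mean was 0.35, 0.82 and -1.17 in sham arrays 1, 2 and 3 and -0.77 to -1.49 in the 7 MCAO arrays, so sham array 3 was inside the MCAO range. Without sham array 3, 14 of 16 members were called lower with a median change of -1.76. When sham array 1 was dropped or array 2, 3 were called, with medians of -1.03 and -0.83. Gpr6 changed by -3.66 without sham array 3, -2.5 without array 1 (adjusted p = 0.0289) and -1.97 without array 2 (adjusted p = 0.0451). Tac1 changed by -2.4 without sham array 3 and lost its call without array 1, at -1.68 (adjusted p = 0.108), and without array 2, at -1.08 (adjusted p = 0.228). Other members of the 20 largest falls that followed this order over the sham arrays were Ankrd63 (9.25, 9.47 and 8.29), Mme (6.98, 7.82 and 5.83), Rasgrp2 (8.78, 9.57 and 7.28), Slc35d3 (6.17, 6.95 and 4.06), Serpina9 (7.0, 7.89 and 5.25), Rxrg (8.48, 8.94 and 6.91) and Pde7b (10.3, 10.81 and 9.48). Their changes were -2.36, -2.03, -1.99, -1.68, -1.65, -1.63 and -1.62. Of these Slc35d3 and Serpina9 had overlapping groups and lost their call when sham array 1 or array 2 was left out. Abi3bp, a matrix protein (7.56, 7.54 and 5.81 in sham, a change of -1.72, SE 0.53), was low in the same sham array and its adjusted p was 0.175 without sham array 1 and 0.149 without array 2. Hippocampal genes were shifted the other way, with list means of -0.01, -0.35 and 0.36 in sham arrays 1, 2 and 3. The part that the tissue taken for each sham array plays in these values was not tested. Calls that rested on 1 array were lost for Slc35d3, Serpina9 and Abi3bp without sham array 1 or sham array 2 and for Abi3bp without MCAO array 3 or MCAO array 6, with limma's adjusted p up to 0.175 (Abi3bp).

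**Figure D5:**
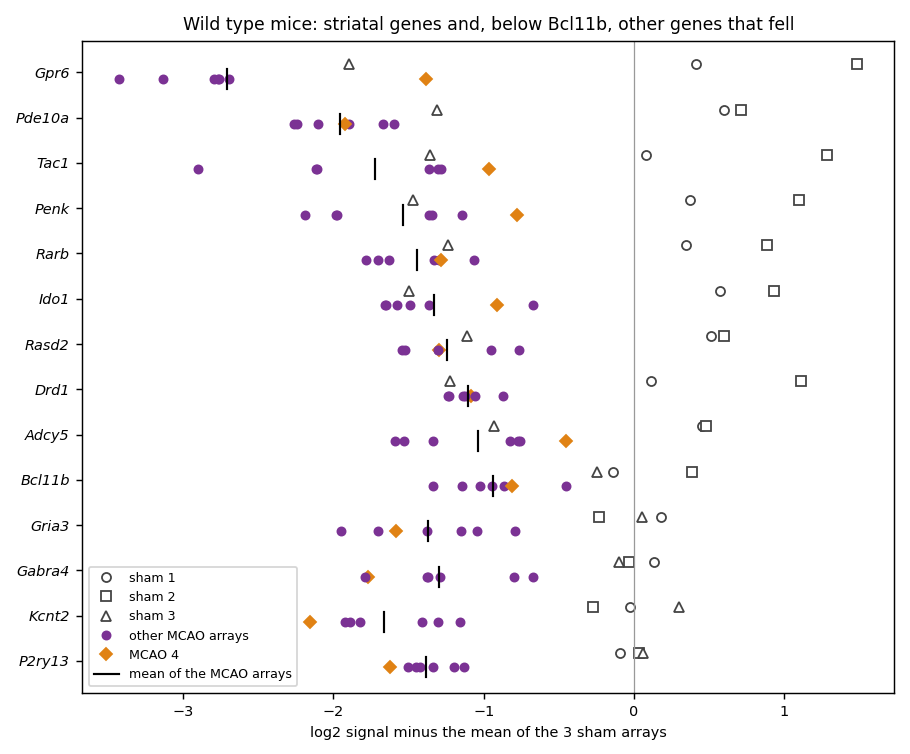
Log2 signal of 14 genes that were called lower, minus the mean of the 3 sham arrays (x axis), in each array; open circles, squares and triangles are sham arrays 1, 2 and 3, purple points MCAO arrays, orange diamonds MCAO array 4 and black bars the mean of the 7 MCAO arrays. For Gpr6 to Adcy5 the triangle lies near or among the MCAO points; for Gria3, Gabra4, Kcnt2 and P2ry13 it lies with the other sham arrays.

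Receptor and channel genes of neurons at large were next. Of 20 glutamate receptor and postsynaptic genes 10 were called lower and none higher (median -0.67). Gria3, an AMPA receptor subunit, read 11.08, 10.67 and 10.95 in sham and 8.95, 9.52 and 10.11 in MCAO, a change of -1.37 (SE 0.26, adjusted p = 0.00103). Gria2 (-0.88), the metabotropic receptors Grm5 (-1.29) and Grm3 (-1.09, SE 0.15) and the NMDA receptor subunit Grin2a (-0.98) fell too, and Gria1 (-0.65), Camk2a (-0.40) and Shank1 (-0.05) were not called. Of 10 GABA receptor genes 6 were called lower (median -0.63). Gabrd, the subunit of tonic inhibition, read 9.8, 9.35 and 8.93 in sham and 7.13 to 8.27 in MCAO, a change of -1.72 (SE 0.27), and Gabra4 changed by -1.3 (SE 0.22). The other probe set of Gabrd moved upward, short of a call. When arrays were left out singly, calls ended for Grin2a without sham array 3, with limma's adjusted p up to 0.0822 (Grin2a).

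Of 25 voltage-gated channel genes 13 were called lower and 1 higher (median -0.67). Kcnv1, a silent potassium channel subunit of cortical and hippocampal neurons, read 9.64, 9.36 and 9.24 in sham and 6.62, 7.73 and 8.03 in MCAO, a change of -1.84 (SE 0.28, adjusted p = 0.000134) without overlap. Kcna4 (-1.22), Kcnd2 (-0.99, SE 0.18), Kcnq3 (-0.85, SE 0.14) and Kcnq5 (-0.90) fell, and Kcna1 (0.08), Kcnc1 (-0.28) and Hcn2 (-0.09) were not called. Kcnt2, a sodium-activated potassium channel outside the list, changed by -1.67 (SE 0.27). The serotonin receptor Htr2c and Cpne4 were lower (-1.2 and -1.37) but among the most variable genes after MCAO, with ranges of 6.68 to 9.05 and 7.4 to 9.73 that overlapped sham. Single arrays decided some of these calls, which were lost for Htr2c and Cpne4 without sham array 1 or sham array 3 or MCAO array 4 or MCAO array 5 or MCAO array 6 or MCAO array 7 and for Htr2c without sham array 2, with limma's adjusted p up to 0.158 (Htr2c).

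Enzymes of cAMP and calcium signalling were called lower in 19 of 29 cases and higher in 1 (2 without MCAO array 4), Pde4b (0.48), with a median of -0.53. Akap5, which anchors protein kinase A at synapses, read 8.7, 8.67 and 8.46 in sham and 6.44, 7.13 and 7.5 in MCAO, a change of -1.61 (SE 0.22, adjusted p = 4.77e-05). Itpka, an inositol kinase of dendritic spines, changed by -1.6 (SE 0.29), Prkar2b by -1.07 and the kinases Camkk2 by -1.04 (SE 0.16) and Camk4 by -0.97. Pde10a, Pde7b, Rasgrp2 and Adcy5 of this list are also striatal. With sham array 1 left out the count of falls was 11. Further genes among the largest falls, Gm12371 (-1.79, SE 0.23) and the netrin receptor Dcc (-1.71, SE 0.34), had no overlap. Some calls ended with an array left out for Pde4b without sham array 1 or sham array 2 or sham array 3 or MCAO array 1 or MCAO array 2 or MCAO array 3 or MCAO array 5, with limma's adjusted p up to 0.188 (Pde4b).

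Of 19 pan-neuronal and synaptic vesicle genes 3 were called lower (median -0.25), the tubulin Tubb3 (-0.82), Stx1a (-0.82, SE 0.14) and Syt1 (-0.25), and Snap25 (-0.21), Rbfox3 (-0.07) and Syn1 (-0.09) were not. Without MCAO array 1 or array 2, with their mean, or with each array shifted to a common median, 5 were called. Of 15 interneuron genes 3 were called lower, Kit (-0.69), Vip (-0.49) and Cck (-0.46), while Gad1 (-0.13), Pvalb (-0.19) and Sst (0.05) were not, and without sham array 1 or array 3 none was. Cortical layer genes were lower in 5 of 18 cases and higher in 1 (median -0.60), with Lamp5 at -1.16 (SE 0.20), Tbr1 at -0.93 and Tle4 at -0.88. Of 14 hippocampal genes 3 were called lower and 1 higher (median -0.17). The falls numbered 1 without sham array 1 or array 3 and 4 without array 2. Of this list Calb1, which striatal and cortical neurons express too, fell by 1.39 (SE 0.20, adjusted p = 9.26e-05), and Prox1 (-0.07) and Wfs1 (0.00) were not called. These differences between neuronal lists were not tested against each other. With 1 array left out, calls were lost for Syt1, Kit, Vip, Cck and Tbr1 without sham array 1, for Syt1 without sham array 2 and for Syt1, Kit, Vip and Cck without sham array 3. They were also lost for Cck without MCAO array 1 or MCAO array 2 and for Syt1 and Cck without MCAO array 3 or MCAO array 5 or MCAO array 6 or MCAO array 7, with limma's adjusted p up to 0.301 (Cck).

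The last lists are of basic cell functions and of other tissues. None of 15 proteasome genes (median 0.00), 18 subunits of oxidative phosphorylation (median -0.12) or 4 erythrocyte genes was called by limma, with 1, 1 and 0 at an unadjusted p under 0.05. The largest size among the oxidative subunits was -0.26 for Ndufa4. With each array shifted to a common median 1 oxidative subunit was called lower. Of 17 genes of DNA replication and mitosis 3 rose, Ccnd1 (0.91), Mcm3 (0.85) and Pcna (0.46), and Mki67 (0.23) and Top2a (0.23) were not called. Of 18 ribosome biogenesis genes 5 rose, none by more than 0.48 (Fbl), and 3 did without sham array 3. Both counts of rises stand beside 8.68% of all genes. Markers of other tissue that a sample could hold varied between arrays. No choroid plexus or thalamic and hypothalamic gene of the lists was called, but 1 of choroid plexus was higher without MCAO array 4 and 1 lower without array 3. The choroid plexus mean was 0.80 in MCAO array 3 and -0.54 in array 4, and the thalamic and hypothalamic mean was 0.82 and 0.80 in MCAO arrays 1 and 2 and -0.45 to 0.13 in the others. Of 15 meningeal and fibroblast genes 3 rose and 1 fell, with Dcn at 1.96 (SE 0.38), Aldh1a2 at 1.88 and Fmod at -1.06. The mean of this list was 0.38 to 0.73 in MCAO arrays 1 to 4 and -0.17 to 0.05 in MCAO arrays 5 to 7. It was -0.05 to 0.08 in sham. The part of such tissue in other changes was not tested. Leaving out single arrays ended calls for Ccnd1 and Pcna without sham array 1, for Mcm3 without sham array 2 and for Pcna and Fbl without sham array 3, with limma's adjusted p up to 0.117 (Mcm3).

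The genes that changed also varied more from array to array. The median SD of a gene was 0.20 over the 7 MCAO arrays and 0.13 over the 3 sham arrays for all genes. It was 0.32 and 0.24 for the 2-fold rises and 0.36 and 0.26 for the 2-fold falls. Beside Prg4, Nptx2, Ifi202b, S100a9, Ccl12, Ccn1, Htr2c and Cpne4 the called genes of largest SD after MCAO were Gjb2, a gap junction gene of meninges (8.63 to 11.54, SD 1.04, a rise of 1.83 that was 1.48 without array 4), and Aldh3a1, an aldehyde dehydrogenase (5.02 to 7.65, SD 0.94). Array 4 was at an end of the range in all of these 10 genes but Htr2c, highest in Prg4, Nptx2, Gjb2, S100a9 and Ccn1 and lowest in Ifi202b, Ccl12, Cpne4 and Aldh3a1. Calls that rested on 1 array were lost for Gjb2 and Aldh3a1 without sham array 1 or sham array 2 or sham array 3 and for Aldh3a1 without MCAO array 3 or MCAO array 5 or MCAO array 6 or MCAO array 7, with limma's adjusted p up to 0.178 (Aldh3a1).

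Each gene was read from 1 probe set, and for 15 of the 274 called genes named here at least 1 further probe set had a change of opposite sign. These were Adcy5, Camk4, Cpne4, Dcc, Gabrd, Hspa12a, Hspa4, Il1rap, Nr4a3, Pde4b, Pycard, Slc4a4, Sptlc3, Tac1 and Tubb6. In none of them was the opposite change called by limma. For Camk4, Dcc, Hspa12a, Il1rap, Pde4b and Slc4a4 another probe set was called in the direction given.

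Whether the same occlusion changed genes differently in mice without the β2 adrenergic receptor was tested as the knockout change minus the wild type change. By limma 1744 of 18193 genes (9.59%) were called for such a difference. That count was 0 without knockout sham array 3, 173 without knockout sham array 2, 100 without wild type sham array 1, 342 without wild type sham array 2 and 1016 without wild type sham array 3. With the actin 3 prime minus 5 prime signal as a covariate it was 8, and that signal was 1.60 to 1.76 in the knockout sham arrays against 0.863 to 1.01 in the wild type sham arrays. Its part in the difference was not tested further. The gene with the smallest p of this test, Hsf2bp, was at 0.25 in wild type, not called, and at -0.64 in knockout, a difference of -0.88 (SE 0.14, adjusted p = 0.0148). Nfkb2 followed with 0.54 and -0.50 (difference -1.04, SE 0.16, adjusted p = 0.0148), and Ifna1, T2, Klk1b27, Nkx2-5, Actl9, 8430426J06Rik, 4933412E24Rik and Sptlc3 had differences between -0.98 (Ifna1) and -0.75 (Sptlc3).

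Among the strong changes of wild type mice the difference was called in 5 of the 367 rises and 22 of the 154 falls of at least 2-fold. These genes were chosen by their wild type change, which is itself part of the difference. Deviations of the wild type arrays therefore enter both, and these counts and the genes given below are descriptions. Both genotypes were called in the same direction for 329 of the 367 and 63 of the 154. The share of all genes called in the knockout is not given here, so these counts cannot be set against it. Saa3 rose by 3.66 in wild type and 1.49 in knockout (difference -2.17, SE 0.51, adjusted p = 0.0198). Gpr34 changed by -2.39 and -0.82 (difference 1.57, SE 0.34, adjusted p = 0.0182), P2ry12 by -2.71 and -1.62 (adjusted p = 0.0474), Kcnv1 by -1.84 and -0.60 (adjusted p = 0.0486) and Akap5 by -1.61 and -0.62 (adjusted p = 0.0466). Of the genes with the largest rises, Lcn2 (4.91 in knockout), Il6 (3.25) and Hspb1 (4.05) were not called for a difference, with adjusted p = 0.472, 0.33 and 0.815. The interval for Il6 was wide, since the SE of its difference was 1.1.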

How the data were processed

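RNA of the ischemic or sham-operated hemisphere was measured on Affymetrix mouse genome arrays. The deposited values are log2 signals made by the authors with RMA, per the submitters' processing notes, whose version is not given in the sources used here. The surgery arrays were normalized apart from the naive arrays, which were not used. Of 45101 probe sets, 34945 had 1 gene symbol, 932 several and 9160 none listed. Of several probe sets of a gene the brightest on average across the 20 surgery arrays was kept, which left 18193 genes. The 4 groups of these arrays were fitted with limma 3.58.1 in R 4.3.3 (16 residual degrees of freedom), and p-values were adjusted by Benjamini-Hochberg over all genes. A gene was called at an adjusted p under 0.05. The fit was tested on simulated data.

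Named were the 20 called genes that rose most, the 20 that fell most and the 10 with the smallest p. Named too were the 10 called genes with the largest SD over the MCAO arrays. Genes named whether called or not were the 10 with the smallest p of the genotype difference. So were members of 61 gene lists (970 distinct genes measured) where their role is described. The members and lists were chosen with earlier results of these data known, so their counts are descriptions. Promoter sequences are RefSeq's for GRCm38.p6. Alternatives were the variance prior, a filter on dim genes, the mean of probe sets, centring, quantile normalization, array weights and wild type arrays alone. Further ones were a replicate block, 2 RNA quality covariates, a stricter threshold and leaving out each wild type or knockout sham array. No knockout MCAO array was left out. Sham arrays 1 to 3 and MCAO arrays 1 to 7 carry the labels' numbers. The gene of the deleted receptor is not reported here.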

Additional observations from a re-analysis of the deposited data

Results flagged for a closer look

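Within the 7 MCAO arrays, a value was singled out where the gap between the highest or lowest array and its nearest neighbour was large against the whole range (Dixon's ratio above 0.568, a level that chance passes in about 1 of 20 groups). Over all 18193 genes 2539 (14%) had such a value, 1933 of them at MCAO array 4 and 383 at array 6. Of the genes named in the text 64 had one, 62 of them at array 4. At array 4 the log2 signal stood above the other arrays for Adamts1 (10.63), Atf4 (12.24), Bdnf (11.59), Ccn1 (11.19), Cdh5 (8.82), Cdkn1a (11.57), Cxcl2 (10.12), Cxcr2 (5.36), Dnajb5 (10.63), Dusp1 (11.52), Egr1 (12.64) and Errfi1 (11.65). Further high values of array 4 were those of Gadd45g (11.15), Gjb2 (11.54), Gpr6 (6.67), Hilpda (8.41), Hspa5 (12.26), Il1r2 (8.42), Inhba (10.89), Maff (8.53), Mbp (14.39), Nfil3 (8.55), Nfkbia (12.58) and Npas4 (8.97). Also high there were Nptx2 (12.16), Nr4a1 (10.97), Odc1 (11.58), Pla2g4a (7.58), Plaur (9.17), Pmaip1 (8.84), Ppp1r15a (9.85), Ptgs2 (10.52), S100a9 (11.26), Sesn2 (9.34), Thbd (9.97) and Tsc22d3 (10.64). Array 4 stood below the others for Bcl2 (7.22), C1qb (8.83), C1qc (8.06), C3ar1 (7.41), Ccl12 (5.8), Cebpd (9.16), Ch25h (8.05), Ctsc (8.39), Cx3cr1 (6.87), Dbp (9.04), Fosl1 (7.54), Gclm (9.54) and Ifi202b (5.18). Further low values of array 4 were those of Ifitm3 (10.45), Irf9 (6.76), Kit (7.15), Mcm3 (5.32), Mmp3 (7.42), Osmr (8.65), Per3 (7.72), Ptx3 (7.99), Serpina3n (11.87), Slc1a3 (9.72), Tnfrsf1a (9.58), Txnrd1 (9.88) and Wfs1 (9.43). Sbno2 stood apart at array 1, where it was high (8.83). Tap1 stood apart at array 6, where it was high (7.45).

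The mean level of a list relative to sham was taken in the same way, and 14 of 61 lists had an array that stood apart, in each case array 4. Array 4 was high for the lists of AP-1/CREB-family and early transcription factors (1.2), neuronal activity-dependent genes (1.08), endoplasmic reticulum and integrated stress response (0.56), hypoxia and glycolysis (0.40), TGF-beta/activin and BMP signalling (0.76), MAP kinase phosphatases and feedback regulators (0.48), neutrophils (1.83), endothelium and barrier (0.94) and pericytes and smooth muscle (0.62). It was low for those of IL-6 family ligands/receptors and STAT3 axis (1.1), complement components and receptors (0.36), lysosome and phagocytosis (0.39), ribosome biogenesis and nucleolus (0.07) and oxidative phosphorylation subunits (-0.31). The actin 3 prime minus 5 prime signal of array 4 was 1.70 against 0.387 to 0.993 in the other MCAO arrays. That of Gapdh was -0.150 against -0.263 to -0.131. The part of RNA integrity in these values was not tested.

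For 36 genes named in the text the MCAO change differed between knockout and wild type by limma's test of that difference. Knockout minus wild type was positive on the log2 scale for Aif1 (0.60), Akap5 (1.0), Dnajb9 (0.59), Dusp6 (0.75), Gpr34 (1.57), Hsp90b1 (0.75), Hspa1b (1.74), Kcna4 (1.29) and Kcnq5 (0.77). Positive values were also those of Kcnv1 (1.24), Oaz1 (0.50), P2ry12 (1.09), P2ry13 (0.65), Per2 (1.3), Per3 (0.88), Prkar2b (1.04), Tbr1 (1.23) and Tjp1 (0.53). It was negative for 4933412E24Rik (-0.75), 8430426J06Rik (-0.80), Actl9 (-0.80), Camp (-0.56), Car9 (-0.86), Elane (-0.62), Fas (-1.01), Hsf2bp (-0.88) and Ifna1 (-0.98). Negative values were also those of Klk1b27 (-0.91), Ltf (-0.56), Mpo (-0.93), Nfkb2 (-1.04), Nkx2-5 (-0.88), Ptger1 (-0.68), Saa3 (-2.17), Sptlc3 (-0.75) and T2 (-0.96). Over all 18193 genes 1744 (9.59%) were called for such a difference, 8 with the actin signal as a covariate, and by limma 0 without knockout sham array 3.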

How the results depend on the processing

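The fit called 2901 genes. Limma with array weights called 4472 (2600 higher), 2775 of which were among the 2901, and an adjusted p under 0.01 gave 1286 (738 higher and 548 lower). Leaving out 1 wild type array at a time gave 1435 to 2920 called genes, 863 to 1591 of them higher and 538 to 1329 lower, with the lowest total without sham array 1 (1435), 1858 without sham array 2 and 1671 without sham array 3. The share of called genes that were higher was 54.4% as reported, 37.4% with each array shifted to a common median and 62.5% without sham array 1. The counts of genes that rose or fell at least 2-fold moved by less than 1.5 times under all of these settings.

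Of the 404 genes named, 274 were called, and 181 of these kept their call and direction under each of 22 settings in which they were tested. A gene removed by the filter on dim genes was not tested under that filter. The stricter threshold and the fits without a knockout sham array are not among the 22. The 1 that reversed was Hspa4, at -0.02 with the mean of its probe sets. Without sham array 1, 79 lost their call, without sham array 2, 46, and without sham array 3, 57. Repeated quantile normalization ended 25 calls. Averaging MCAO arrays 1 and 2, a setting chosen after seeing the data, ended 6 calls, and leaving out array 4 as well ended 14.

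The genotype difference was called in 1744 genes. The count was 837 without dim genes, 169 after repeated quantile normalization, 4100 with array weights, 757 with the Gapdh 3 prime minus 5 prime signal as a covariate and 8 with that of actin. It was 100 to 2214 with 1 wild type array left out, and, as settings chosen after seeing the data, 173 without knockout sham array 2 and 0 without knockout sham array 3. At an adjusted p under 0.01 limma called 0. The causes of these shifts were not tested.

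Deviations of sham and MCAO arrays with the same number correlated at 0.34, -0.18 and -0.07 over genes, and those with different numbers at -0.23 to 0.28. The value for arrays numbered 1 was the highest of all, so these values cannot tell whether the replicate numbers pair the arrays. With the number as a replicate block 2024 genes were called, 1082 higher and 942 lower, and 1619 for the genotype difference. Of the named called genes 41 lost their call under the block.

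Precision is limited by the 3 sham arrays. In simulated data of this design 92% of genes with a 2-fold change and 63% of those with a 1.5-fold change were called, as were 9 unchanged genes. The simulation changed 100 genes per size and drew independent noise with the same SD of a gene in every group. Outlying arrays, close pairs of arrays and a larger spread after MCAO were not simulated, so these shares need not hold for the data.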
